A study of Homo sapiens with 6 samples.

Results

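The data are sites of nascent-strand sequencing (NS-seq), an assay that enriches short, newly made DNA from replication origins by size fractionation and by exonuclease digestion of DNA that lacks an RNA primer. U2OS cells, an established line from a human osteosarcoma, received either a control siRNA called gl3 (2 samples) or siORCA, which targets ORCA (2 samples). ORCA is encoded by LRWD1, and it is a partner of the origin recognition complex that keeps it bound to chromatin. The 2 genomic DNA samples were not analysed here, and how far ORCA was depleted cannot be read from DNA. Separate cultures are not stated for the replicates, so a p-value here covers the spread between the samples alone, and that spread may be technical.

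The stretches described here are dense clusters of origin sites that were found again in a second sample. Peaks of the 4 lists on chromosomes 1 to 22 and X were pooled, and peaks that touched or overlapped were merged into 534833 regions, of which 213502 had peaks from 2 or more lists. Regions no more than 5 kb apart were joined into 96307 chains. A chain of 10 or more regions is called a zone, and 2689 chains (2.79%) were zones. The zones held 43771 regions, 20.5% of all reproducible regions, in 99.5 Mb. Of the other chains, 34452 had 2 to 9 regions and 59166 were single regions that stood alone. Peak positions in all 4 lists chose the zones, so their number, size and density are descriptions and were not tested.

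Human replication does not start at one fixed sequence. The origin recognition complex and the MCM helicase are loaded at many places in a stretch of DNA, and in a given cell only some of them fire, so that over many cells starts spread across broad initiation zones. Such zones are known to lie often near active genes and open chromatin and to replicate early in S phase. Whether the zones described here are initiation zones in that sense was not measured.

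The lists differed in length. On these chromosomes the controls had 181132 and 235444 peaks (samples 1 and 2, covering 58.5 and 67.0 Mb), and the siORCA samples 329933 and 198486 (86.1 and 64.0 Mb). The siORCA 1 list stood apart as the longest, and it also had the strongest peaks. Sequencing depth is unknown, and its part in these differences was not tested. Without siORCA 1 the same rule, applied to the other 3 lists, gave 1216 zones, and without siORCA 2 it gave 1552.

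Zones were mostly short, with a long tail. Their median length was 31.4 kb, with the middle 50% between 24.9 and 42.3 kb, and the shortest and longest were 11.9 and 270.2 kb. The median zone held 13 regions, 569 zones (21.2%) held at least 20, and 26 held at least 50. Length rose almost in step with the number of regions, so density varied little: the median was 0.44 regions per kb, and 80% of zones lay between 0.37 and 0.54. Within zones, reproducible regions took up a median of 29.3% of the length, with a range from 10.7% to 60.6%. The gap between neighbouring regions had a median of 1328 bp, well inside the limit of 5 kb. At the edge of the rule there was no break, since 601 chains of 9 regions (median length 20225 bp) stood just outside and 472 chains of 10 regions (median 22856 bp) just inside.

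**Figure D1:**
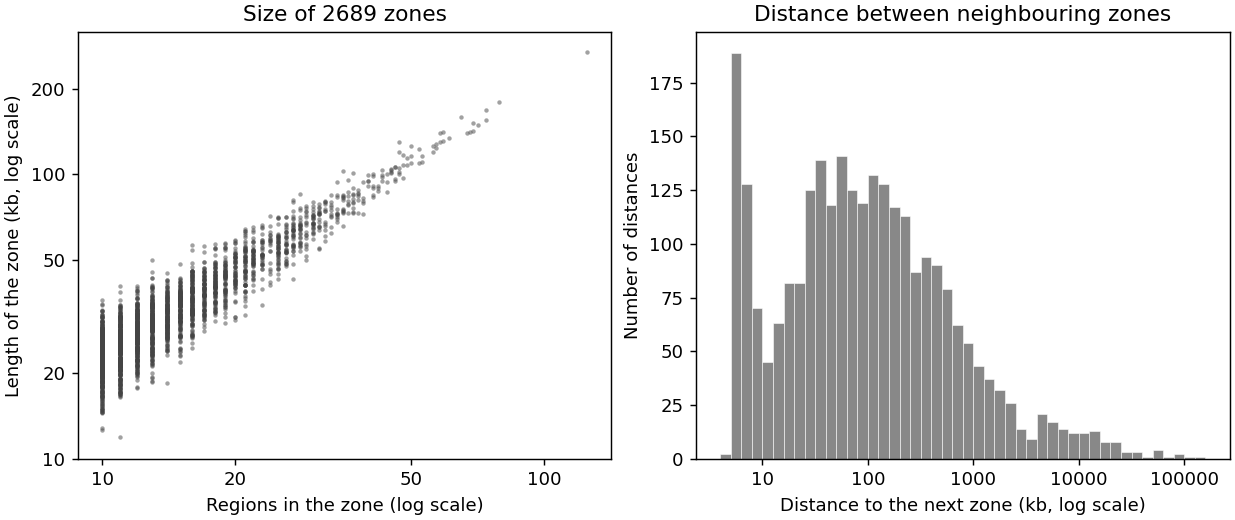
Left, the length of each of the 2689 zones in kb against its number of regions, both on log scales, 1 point per zone. Right, a histogram of the 2666 distances between neighbouring zones in kb on a log scale; 389 of them lie below 10 kb, next to the 5 kb limit of the rule, and the median is 83.5 kb.

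Zones came in groups. The distance from one zone to the next on the same chromosome had a median of 83.5 kb, and the middle 50% of distances lay between 25.4 and 315 kb. A total of 389 distances (14.6%) were under 10 kb, so a slightly longer gap in the rule would have joined these zones, and 1041 (39.0%) were under 50 kb. When zones up to 50 kb apart were joined, 1579 of the 2689 zones fell into 538 runs of at least 2. The run with the most zones held 13 within 691 kb on chromosome 9, from 145591716 to 146283042 on T2T-CHM13. A run of 12 zones on chromosome 8, from 142654842 to 143785067, had more regions, 443 in 1130 kb. There peaks of control 1 and control 2 covered 231 and 204 kb, and those of siORCA 1 and siORCA 2 covered 249.8 and 289 kb. Other runs of 10 or 11 zones lay on chromosome 19 from 58157382 to 58777188, chromosome 17 from 80008275 to 80748030 and chromosome 7 from 156213 to 798696.

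At the other end, long stretches had no zone at all. The longest was on chromosome 4, 126 Mb between 8856262 and 135024784. It was not empty of sites, since it held 3812 reproducible regions, all in single regions or chains too short to count. Chromosome 6 had 107 Mb without a zone, from 44335130 to 151209617, and chromosome 5 had 94.4 Mb, from 38087943 to 132504587. These stretches contain the centromeres of chromosomes 4, 5 and 6, but most of their length lies outside them.

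Zones were spread unevenly over chromosomes. Chromosome 22 had the highest density, 169 zones or 32.9 per 10 Mb, followed by chromosome 19 with 184 zones (29.8 per 10 Mb), chromosome 17 with 243 (28.8) and chromosome 20 with 126 (19.03). These 4 chromosomes make up 8.63% of the length between first and last peaks and 17.1% of reproducible regions, and they held 26.9% of zones. The lowest densities were on chromosome X with 16 zones (1.04 per 10 Mb), chromosome 13 with 13 (1.14), chromosome 4 with 30 (1.55) and chromosome 18 with 14 (1.74). Those 4 chromosomes make up 17.7% of the length and 7.45% of regions, and they held 2.71% of zones. On chromosome 22, 38.5% of reproducible regions were in a zone, against 5.42% on chromosome 18. Zone length differed much less than zone number, with medians by chromosome from 28.7 kb on X to 36.8 kb on chromosome 13.

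Chromosomes with many genes tended to have many zones. Protein-coding genes were counted by chromosome from RefSeq on GRCh38.p14, without using positions, and divided by the length between the first and last peak. Over the 23 chromosomes, zones per 10 Mb correlated with genes per Mb at Pearson's r = 0.79 (Spearman's rho = 0.83), and at r = 0.84 (rho = 0.76) over 20 chromosomes without the 3 of highest zone density. Zone density also followed the density of reproducible regions from which zones were built (r = 0.96). The chromosomes share all 4 libraries, and these values are a description. The relation was loose: chromosome 22 had 37.5 zones per 100 genes, chromosome 19 had 12.7, and X had 1.89, although X has 5.50 genes per Mb and chromosome 10, with 18.3 zones per 100 genes, has 5.45.

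**Figure D2:**
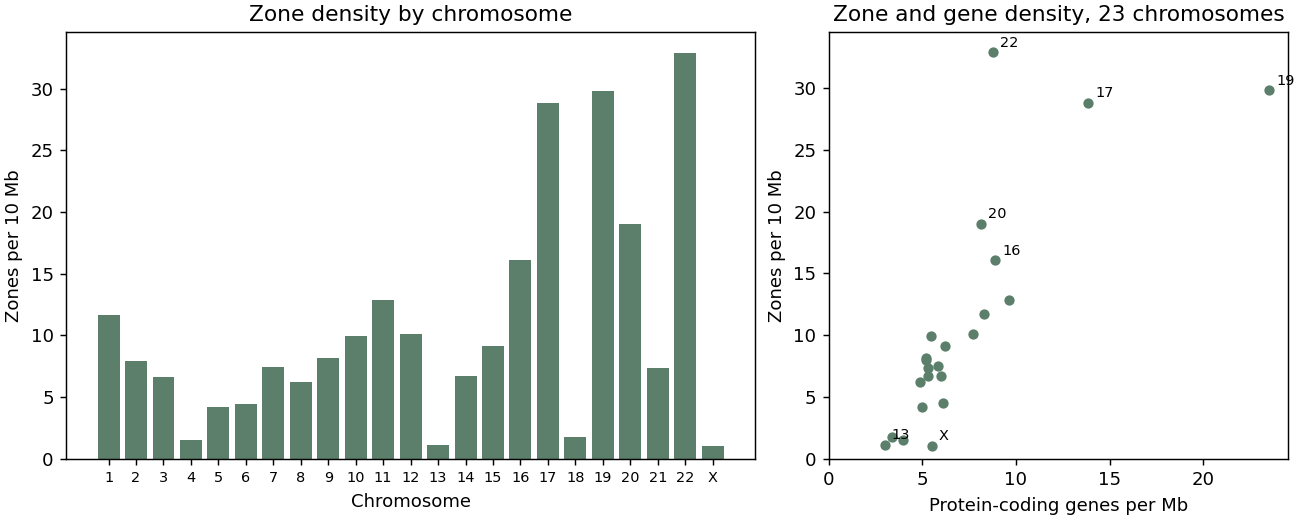
Left, zones per 10 Mb for each chromosome as bars. Right, zones per 10 Mb against protein-coding genes per Mb, 1 point per chromosome; chromosomes 17, 19 and 22 stand at 28.8 to 32.9 zones per 10 Mb, and X, with 1.04, lies below chromosomes of the same gene density.

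Zones also gathered toward chromosome ends. Within 5 Mb of the first or last peak of a chromosome lay 622 zones (23.1%), against 14.8% of reproducible regions and 7.53% of the length. Within 1 Mb the shares were 4.61% of zones, 2.96% of regions and 1.51% of the length.

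Sites in zones were found again more often than sites that stood alone, in a sample that had no part in defining them. For this comparison, regions and zones were defined from 3 lists and read in the fourth, which gave 1216 to 1929 zones. Peaks of control 1 met 67.4% of regions in zones and 43.5% of single regions. For control 2 the shares were 65.7% and 47.2%, for siORCA 1 86.0% and 65.9%, and for siORCA 2 81.2% and 56.1%. Each sample thus met more of the regions in zones, and chains of 2 to 9 regions lay between. The difference was 21.9 ± 3.13 percentage points (SD, n = 4 samples; exact sign-flip permutation test, two-sided, p = 0.13, the smallest that 4 samples allow). The Wilson 95% margin of each share was at most 0.553 percentage points, which covers counting error only. It treats regions as independent, although those of a zone are neighbours, so it may be too small.

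Regions in zones were wider, and a wide region is met more easily. Their median width was 543 bp, against 405 bp in chains of 2 to 9 regions and 304 bp for single regions. Among regions of 200 to 400 bp, the difference in recovery was smaller but had the same direction in all 4 samples, 14.0 ± 4.33 percentage points (SD, n = 4; exact sign-flip permutation p = 0.13). The DNA between the regions of a zone also had more peaks of the left-out sample than DNA outside zones. It was covered over 4.68% and 5.33% in the controls and 8.69% and 5.97% in siORCA 1 and siORCA 2, while DNA outside zones was covered over 1.59%, 1.92%, 2.55% and 1.77% in the same order. DNA near zones was also covered more than DNA outside zones as a whole. With zones from all 4 lists, DNA outside zones but 100 to 200 kb from one was covered over 4.24%, 4.47%, 6.06% and 4.95%. These values are not like for like with those between the regions of a zone. The flank keeps its reproducible regions, and its zones were defined with every sample.

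**Figure D3:**
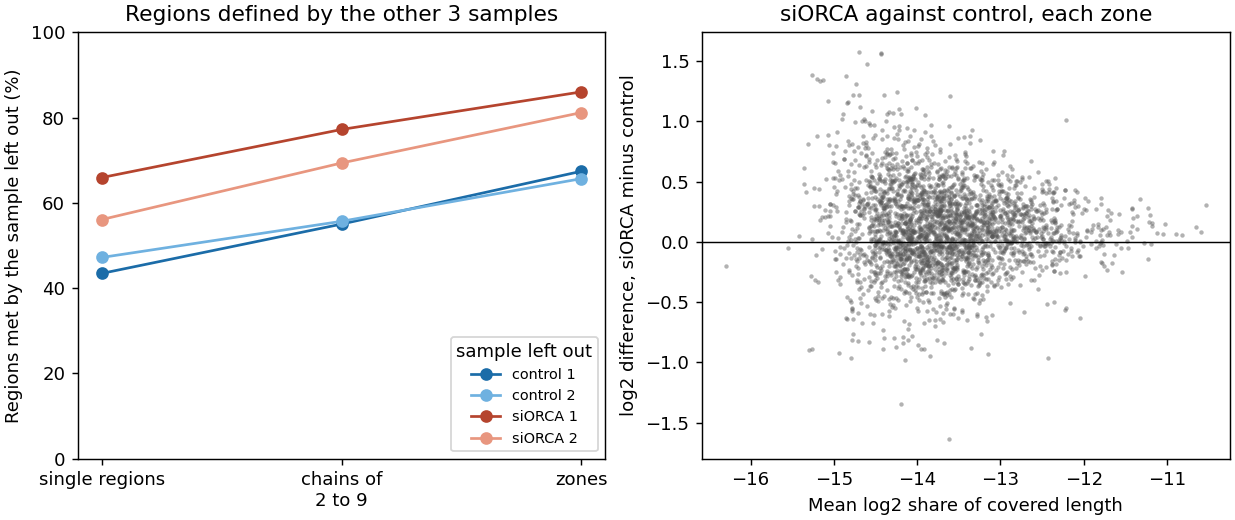
Left, the percent of regions defined by 3 samples that peaks of the fourth met, for single regions, chains of 2 to 9 regions and zones, 1 line per left-out sample; each line is highest at zones. Right, the log2 difference in share of covered length (siORCA minus control) against the mean log2 share, 1 point per zone; the points centre on 0.10 and scatter more where the share is small.

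Regions present in all 4 lists made up 40.9% of regions in zones (17896 regions), 26.5% in chains of 2 to 9 and 16.8% of single regions. Since every region had to be in at least 2 lists, this describes the members and was not tested. In zones, siORCA 1 had a peak in 88.2% of regions, siORCA 2 in 83.3%, control 1 in 69.6% and control 2 in 68.6%. Regions found in both siORCA samples and neither control numbered 4881 (11.2% of regions in zones), and those in both controls and neither siORCA sample 980 (2.24%). Among single regions the shares were 15.2% and 5.94%. Over all reproducible regions they were 13.6% and 4.19%. Pairs that cross the groups also had zone regions to themselves, 6.63% for control 2 with siORCA 1, 4.82% for control 1 with siORCA 1, 3.22% for control 1 with siORCA 2 and 3.08% for control 2 with siORCA 2.

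Peaks in zones were wider and somewhat stronger than peaks in single regions, which had passed the same rule of 2 lists. The classes were not matched beyond that rule, since 40.9% of zone regions and 16.8% of single regions were in all 4 lists. Width and fold were not compared among regions found in the same number of lists. In zones the median width was 328 and 286 bp in control 1 and control 2 and 289 and 324 bp in siORCA 1 and siORCA 2. In single regions it was 204, 191, 179 and 187 bp. That is a difference of 116.5 ± 18.1 bp (SD, n = 4 samples), given as a description with no test, since the rule used peak positions and wide peaks shorten gaps. Fold enrichment, the authors' own value for each peak, had medians in zones of 4.202, 4.38, 5.51 and 4.56 in the same order, against 3.90, 4.18, 4.89 and 4.31 in single regions. It was higher in zones in 4 of 4 samples, by 0.344 ± 0.188 (SD, n = 4; exact sign-flip permutation p = 0.13), and by 0.230 ± 0.0854 among peaks of 200 to 400 bp. A stronger peak is more often found again, and the same lists chose both classes. The p-value therefore does not test fold apart from the rule, and the difference is a description. A share of 8.15%, 6.26%, 6.70% and 8.75% of peaks in zones was over 1 kb wide, against 1.199% to 1.68% of peaks in single regions.

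Most zones did not have one peak that led in every sample. In 400 zones (14.9%) the strongest peak lay in the same region in all 4 lists, in 748 (27.8%) in exactly 3 lists, and in 382 (14.2%) each list had its strongest peak in a different region. Between 2 samples, the strongest peak was in the same region in 29.0% of zones (control 2 and siORCA 1) to 47.5% (control 1 and siORCA 2). The strongest peak of a zone had a median fold of 18.2 in siORCA 1, and of 9.28 in siORCA 2, 8.27 in control 2 and 7.76 in control 1, so siORCA 1 stood well above the others. Strongest peaks lay along the zone much as its regions did: 47.7% to 48.9% of them lay in the central part, from 25% to 75% of the length, where 47.3% of the zones' regions lay.

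Zones stood within wider stretches rich in peaks. By the rule, the first 5 kb outside a zone can hold no reproducible region, and coverage there was 0.888% and 1.58% in control 1 and control 2 and 2.52% and 0.800% in siORCA 1 and siORCA 2. From 10 to 20 kb outside the edge it was 8.03%, 7.98%, 10.8% and 9.54%, which is 3.64 to 4.55 times the coverage of the chromosomes as a whole in the same sample. From 190 to 200 kb it was still 2.99 to 3.73 times. Part of this flank lies in other zones, 25.6% of it between 20 and 50 kb and 21.2% between 100 and 200 kb. With zones left out, DNA between 100 and 200 kb from a zone was covered over 4.24%, 4.47%, 6.06% and 4.95%, which is 2.49 to 3.17 times the coverage of all DNA outside zones.

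**Figure D4:**
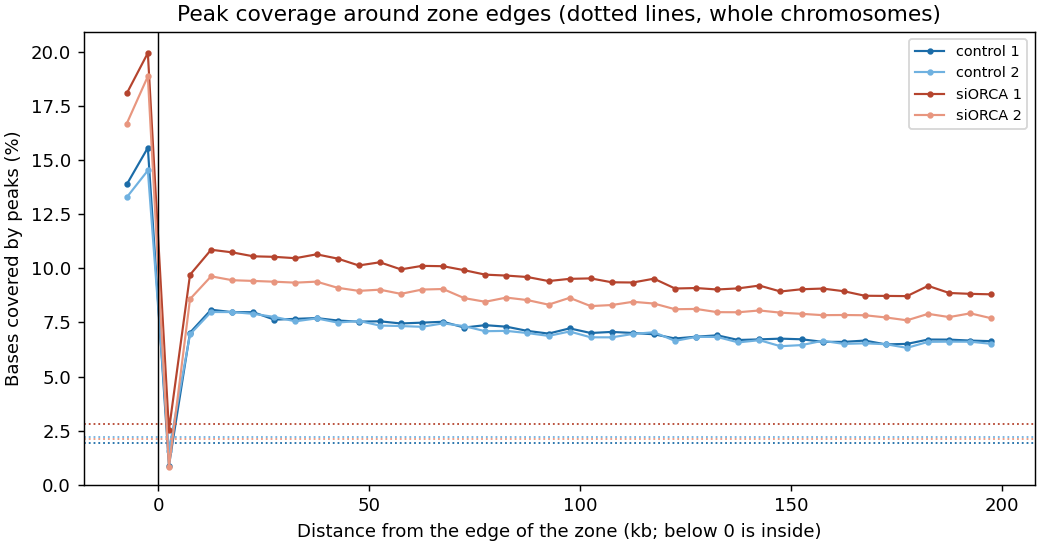
The percent of bases covered by peaks in bins of 5 kb against the distance from the zone edge in kb, averaged over both sides of all zones (inner bins over zones of at least 20 kb), 1 line per sample; dotted lines give each sample's coverage of whole chromosomes. Coverage dips in the first 5 kb outside, which the rule keeps free of reproducible regions, and at 190 to 200 kb it is 6.65%, 6.56%, 8.81% and 7.81% in control 1, control 2, siORCA 1 and siORCA 2.

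The comparison of siORCA with control asks how origin activity in the zones differs when ORCA is targeted. Of the zones, peaks covered 14.99 and 13.97 Mb in control 1 and control 2, and 19.2 and 17.9 Mb in siORCA 1 and siORCA 2. Both siORCA samples lay above both controls, at 18.5 ± 0.886 Mb against 14.5 ± 0.716 Mb (SD, n = 2 in each group; two-sided exact permutation p = 0.33, which is the lowest that 2 against 2 can give). The same peaks chose the zones, and siORCA 1 and siORCA 2 had peaks in more of the zone regions (88.2% and 83.3%) than the controls (69.6% and 68.6%). The comparison is therefore a description, and the limit also holds for the shares and zone fits below. The siORCA 2 list covered less of the genome than that of control 2 (64.0 against 67.0 Mb) and more of the zones. The median zone was covered over 4473 and 4276 bp in control 1 and control 2, and over 5829 and 5301 bp in siORCA 1 and siORCA 2. It held a median of 11 peaks in each control, 16 in siORCA 1 and 12 in siORCA 2. The highest covered length of the 4 samples was in siORCA 1 in 1356 zones (50.4%) and in siORCA 2 in 855 (31.8%).

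As a share of each list, the groups no longer separated. Zones held 28.0% of the covered length in siORCA 2, 25.6% in control 1, 22.3% in siORCA 1 and 20.9% in control 2. The difference was 1.88 percentage points, 25.1 ± 4.05% in siORCA against 23.2 ± 3.37% (SD, n = 2 in each group; two-sided exact permutation p = 0.667). Peaks outside any chain had shares in the reverse order, 8.93% of the list in siORCA 2, 15.02% in control 1, 25.1% in siORCA 1 and 26.1% in control 2. They are the remainder of the same list, so the orders are tied. Zones were covered 11.5 times as densely as the rest in siORCA 2, 10.2 times in control 1, 8.51 times in siORCA 1 and 7.83 times in control 2. The difference in share turned to −0.478 percentage points without control 2 and to −1.07 without siORCA 2, with zones redefined from the other 3 lists, and to −0.756 in the stricter list of peaks (−log10 q 3 or more). With lists cut to the same covered length and zones redefined from them, it was 2.80 (two-sided exact permutation p = 0.33). There both siORCA shares lay above both control shares. Of 12 alternatives, 9 kept the direction and 3 reversed it.

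**Figure D5:**
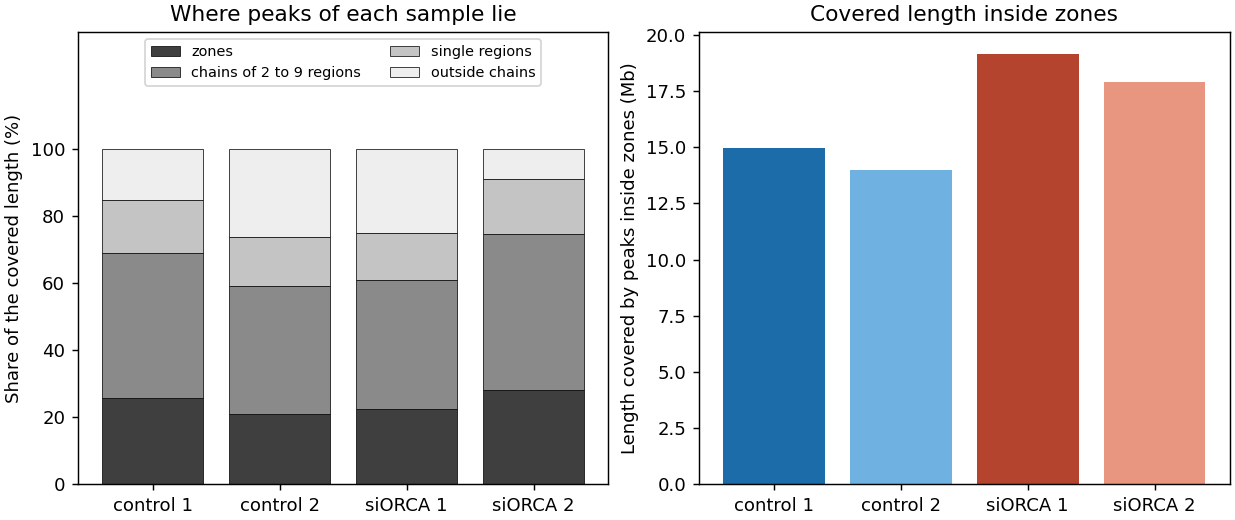
Left, the covered length of each sample split into zones, chains of 2 to 9 regions, single regions and peaks outside chains, in percent, 1 bar per sample. Right, the length covered by peaks inside zones in Mb; the siORCA bars (19.2 and 17.9 Mb) stand above the control bars (14.99 and 13.97 Mb), while the shares on the left (25.6% and 20.9% in control, 22.3% and 28.0% in siORCA) overlap.

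When zones were defined from 1 group alone, the siORCA lists gave more of them. Regions in both control lists numbered 80407 and formed 238 zones. Regions in both siORCA lists, 1 of which is the longest list, numbered 130543 and formed 1086 zones. Zones of each group were not counted with lists cut to the same covered length. Of the control zones, 203 (85.3%) met a siORCA zone, and of the siORCA zones 202 (18.6%) met a control zone. These shares are tied to the unequal numbers of zones, since 238 control zones can meet only a small part of 1086. Peaks of siORCA 1 and siORCA 2 met 90.6% and 92.4% of the regions in control zones, where single regions were met at 72.1% and 73.0%. Over the span of the control zones, coverage was 25.9% and 22.7% in the controls that defined them and 27.8% in each siORCA sample. As a share of each list's covered length these zones held 3.40% and 2.60% in the controls and 2.48% and 3.34% in siORCA 1 and siORCA 2, and the groups overlapped. Over the span of the siORCA zones, coverage was 18.3% and 16.2% in the controls and 23.7% and 23.4% in the siORCA samples that defined them. As a share of each list's covered length, siORCA zones held 11.6% and 8.99% in the controls and 10.3% and 13.6% in siORCA 1 and siORCA 2. The groups overlapped there too. Peaks of control 1 and control 2 met 74.0% and 70.2% of the regions in siORCA zones, and 53.4% and 53.0% of single regions.

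Zone by zone, no zone was called at the spread between these samples. All 2689 zones were among the 11992 chains fitted with limma on log2 shares of covered length. Of all chains, 1 was called higher and 1 lower (0.00834% each; limma, adjusted p under 0.05), and neither was a zone (0 of 2689). At an unadjusted limma p under 0.05, 63 zones were higher in siORCA (2.34%; 2.20% of all chains) and 14 lower (0.521%; 1.49% of all chains). In either direction it was 2.86% of zones, against 3.69% of all chains. The median log2 difference was 0.10 over zones and 0.07 over all chains, and 80% of zones lay between −0.29 and 0.53, with a median SE of 0.41. Both siORCA shares were above both control shares in 516 zones (19.2%; 18.7% of all chains) and below both in 196 (7.29%; 11.5% of all chains). The log2 difference was above 0 in 63.6% of zones and in 56.4% of all chains. Among zones the share above 0 was 39.8% with the stricter list, 44.9% without control 2 and 38.5% without siORCA 2. It was 76.3% with lists cut to the same covered length, 75.5% without control 1 and 80.2% without siORCA 1. In the other settings it lay between 58.6% and 68.2%.

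The zone with the most regions, also the longest, was on chromosome 10 from 72422933 to 72693117, with 125 regions in 270.2 kb, 52 of them in all 4 lists. Of this zone, 40.6 and 35.1 kb were covered in control 1 and control 2, and 56.7 and 54.0 kb in siORCA 1 and siORCA 2. Both siORCA samples thus lay above both controls in length. Per Mb of each list's covered length these are 695, 523, 658 and 843 bp, and on that scale the groups overlapped (log2 difference 0.30, SE 0.29, limma, adjusted p = 1.00). Its strongest peak had a fold of 12.4 in both controls, 75.1 in siORCA 1 and 23.01 in siORCA 2.

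The next zones by number of regions were on chromosome 8 from 145544252 to 145724092 (79 regions, 179.8 kb), chromosome 11 from 63979762 to 64148655 (74 regions), chromosome 2 from 219901904 to 220057068 (74 regions) and chromosome 8 from 143547807 to 143696726 (71 regions). The first 2 and the chromosome 2 zone are also among the 5 longest, which a zone on chromosome 5 from 996572 to 1155696 (65 regions, 159.1 kb) completes. On the chromosome 2 zone peaks covered 41.4 and 33.3 kb in the controls and 50.2 and 45.8 kb in the siORCA samples. On the chromosome 5 zone they covered 21998 and 20743 bp in the controls and 28955 and 29457 bp in the siORCA samples. In each of these zones both siORCA samples covered more bases than both controls, and in each the groups overlapped once divided by list length. Their log2 differences were small, from 0.06 to 0.20 (limma, adjusted p = 1.00 for each).

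The densest zones were short. One on chromosome 9 from 146122954 to 146134854 packed 11 regions into 11.9 kb (0.92 regions per kb), and lies within the run of 13 zones named above. Its covered length was 1618 and 1365 bp in the controls and 1884 and 2372 bp in the siORCA samples. The others were on chromosome 5 from 133177962 to 133190608 (0.79 per kb) and chromosome 2 from 45051101 to 45063951 (0.78 per kb).

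Of the zones with the smallest p in limma, those higher in siORCA were on chromosomes 1, 10 and 12, and none passed the threshold. On chromosome 1 from 160629743 to 160667886, peaks covered 36.9 and 14.2 bp per Mb of the list in control 1 and control 2 and 81.2 and 69.6 bp in siORCA 1 and siORCA 2. The groups did not overlap, and the log2 difference was 1.57 (SE 0.45, limma, adjusted p = 0.456). On chromosome 10 from 45837219 to 45865022 the values were 16.7, 31.5, 69.4 and 80.5 bp per Mb in the same order, a log2 difference of 1.55 (SE 0.45, limma, adjusted p = 0.456). There the strongest peak had a fold of 7.43 and 10.3 in the controls and 47.6 and 41.2 in siORCA. On chromosome 12 from 124758581 to 124778265 the values were 28.2, 12.0, 56.0 and 69.1 bp per Mb, a log2 difference of 1.58 (SE 0.46, limma, adjusted p = 0.497). With control 1 left out, the zones on chromosomes 1 and 12 passed (the same 2689 zones, log2 2.19 and 2.12; limma, adjusted p = 0.0358 and 0.0444, each in a range to 1.00 over the alternatives), where the spread rests on the siORCA pair and on other chains.

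The 3 zones lower in siORCA did not pass either, and in each the siORCA samples were further apart than the controls. On chromosome 2 from 232300992 to 232334353, peaks covered 114 and 164 bp per Mb in the controls and 16.96 and 102 bp in the siORCA samples, a log2 difference of −1.64 (SE 0.41, limma, adjusted p = 0.258). The groups did not overlap, but siORCA 2 lay close to control 1. Without siORCA 2 the log2 difference was −2.86 (limma, adjusted p = 0.000784, in a range to 1.00 over the alternatives), and without siORCA 1 it was −0.42. Each of these fits leaves 1 siORCA sample, which is assumed to vary like the controls and other chains, and this holds for the next zone too. On chromosome 15 from 19536979 to 19560639, 96.2 and 69.7 bp per Mb in the controls stood against 7.77 bp in siORCA 1, while siORCA 2 had 109 bp, the highest of all. The log2 difference there was −1.34 (SE 0.44, limma, adjusted p = 0.949), −3.08 without siORCA 2 (limma, adjusted p = 0.000784, in a range to 1.00 over the alternatives) and 0.39 without siORCA 1. On chromosome 21 from 41598576 to 41642857 the values were 256 and 243 bp per Mb in the controls and 166 and 97.1 bp in siORCA, with no overlap (log2 −0.96, SE 0.36, limma, adjusted p = 1.00).

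Zones kept much of their rank between samples. Spearman's rho of the zones' shares of covered length was 0.77 to 0.83 over the 6 pairs of samples (2689 zones), and 0.51 to 0.63 when each share was divided by the zone's length, with the highest value, 0.63, between control 1 and siORCA 2. These correlations are across zones, which the same lists defined. A single zone had no peak in a sample. It lay on chromosome 14 from 308035 to 331250, with 10 regions, and was covered over 3283 bp in control 2 and 3500 bp in siORCA 1 and over 0 bp in control 1 and siORCA 2. None of its regions was in all 4 lists (0 of 10).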

How the data were processed

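The deposited files are broad peak lists, 1 per nascent-strand sample. The submitters' processing notes name BWA, SAMtools and MACS2 and the build T2T-CHM13. Versions, settings and the background sample are not given in the sources used here, and the deposited columns are position, score, fold enrichment as a ratio over background, −log10 p and −log10 q. The lists hold no read counts, so depth is unknown.

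From these, regions, chains and zones were built as the report describes, and covered length was the sum of peak bases inside a span. All chains with a mean of at least 1000 bp covered were fitted with limma 3.58.1 in R 4.3.3 (lmFit, eBayes with trend, Benjamini-Hochberg adjustment, threshold 0.05). The fitted value was log2 of covered bp plus 200 bp, over the list's total, a scale that understates changes of low values. On 11992 simulated chains for siORCA against control, with 50 zones changed at each size, the fit recovered 4% of log2 changes of 0.5, 22% of 1, 98% of 2 and 100% of 3, with 9 false calls among 121. Simulated noise was independent between chains and had the same SD in all of them, the median SD within groups over the real chains. That SD was taken on log2 covered bp plus 200 bp, before division by the list's total. It therefore includes differences in list length and is not the SD of the fitted value. Real chains differ in spread, so recovery among them may differ. Single values were compared with exact permutation tests over samples. The remaining steps ran in Python 3.11.15 (scipy 1.17.1, pandas 2.3.3, numpy 2.4.6).

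The members, lists and tests were chosen with earlier results of these data known. Zones were named by rank (most regions, longest, most regions per kb, and the 3 smallest limma p-values each way, since none passed). Alternatives were stricter lists, lists cut to one covered length, other gaps and region minimums, left-out replicates, another comparison class, pseudocount, filter and scaling, and the replicate number as a block. Genes and sequences at zones were not analysed here, since no genome of this build was used. Same-numbered samples were checked for pairing: over the 2689 zones, control 1 minus control 2 and siORCA 1 minus siORCA 2 (log2 shares) correlated at r = −0.13.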

Additional observations from a re-analysis of the deposited data

How the results depend on the processing

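The number of zones, 2689, followed the settings of the rule. It was 570 with the stricter list (−log10 q 3 or more), 1735 with lists cut to the same covered length, 355 and 4114 with gaps of 2 and 10 kb, 4050 and 1161 with at least 8 and 15 regions, 872 with regions in 3 or more lists, and from 1216 to 1929 with each sample left out. From the control lists alone it was 238 and from the siORCA lists alone 1086, settings chosen after seeing the data. The difference in share of covered length (1.88 percentage points) was −0.756 with the stricter list and 2.80 with lists cut to the same covered length. It ran from −1.07 to 3.48 with each sample left out. The difference kept its direction in 9 of 12 alternatives and reversed in 3, so its direction is not settled. With the replicate block it was 1.88 (exact sign-flip permutation p = 1.0 over 2 pairs), and limma with the replicate block called 0 zones each way. With control 1 paired to siORCA 2 and control 2 to siORCA 1, chosen after seeing the data, limma called 3 zones higher and 2 lower. With each sample left out and zones redefined from the other 3 lists, it called from 0 to 1 higher and from 0 to 2 lower. The report's values for single zones without a sample keep the 2689 zones instead, a different fit. The other alternatives called 0 zones. The zone on chromosome 15 from 19536979 ran from a log2 difference of −3.08 without siORCA 2 to 0.39 without siORCA 1. Zones stayed above single regions in recovery by a left-out sample (12.1 to 23.6 percentage points), in median fold (0.230 to 0.441) and in median width (98.8 to 168.6 bp) under all alternatives run. Against chains of 2 to 9 regions the differences were 10.8 percentage points, 0.235 and 73.5 bp. Each alternative still chained reproducible regions by their gaps, so width and fold stayed tied to the rule. Their steady direction is a description. Recovery was not run with regions in 3 or more lists. Depth is unknown, and 2 samples a group cannot give an exact p under 0.33.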
